A study of Mus musculus with 4 samples.

Results

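Amino acid transporter families were read as every gene whose symbol on the array annotation begins with Slc1a, Slc3a, Slc6a, Slc7a, Slc36a or Slc38a followed by a digit. The rule found 60 of the 18193 genes with a probe set of their own. Each gene was read from its brightest probe set by mean log2(intensity + 16). Of the 60 genes, 27 had a mean at or above the median of all genes (log2 value of 8.04, an intensity of about 247) and are called readable here, and 33 were dimmer. The rule used gene symbols only, so the direction of every difference was free. Glomerular RNA of male mice was hybridised to 1 Affymetrix array for each of 4 groups. The groups were GC-A knockout with aldosterone and salt (KO ALDO), wild type with aldosterone and salt (WT ALDO), GC-A knockout with control treatment (KO control) and wild type with control treatment (WT control). The knockout was systemic and removed guanylyl cyclase A, through which atrial and brain natriuretic peptides act. All mice of all groups had 1 kidney removed. ALDO mice received aldosterone under the skin and a 6% salt diet for 3 weeks, and control mice received 2% ethanol by the same route and a normal diet. For the strain, the age, the number of mice behind an array and the way of isolating glomeruli, the labels give nothing.

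Each group had 1 array, so no difference reported has a test or a replicate error, and precision is limited by the number of arrays. Differences are log2 values of KO minus WT or of ALDO minus control, and a 2-fold difference (1 on the log2 scale) was counted as large. The arrays had been scaled by the authors to the same trimmed mean (500.003 on each), and their median intensities were between 89.5 and 103. The 3' to 5' signal ratio of the Actb control probe sets was 1.61 in KO ALDO, 1.87 in WT ALDO, 1.67 in KO control and 1.86 in WT control. For Gapdh it was 0.744, 0.778, 0.741 and 0.785 in the same order. Both ratios were lower on the KO arrays, and their part in the genotype differences was not tested. Npr1, the targeted gene, was dim on all arrays (23.4 in KO ALDO, 60.5 in WT ALDO, 108 in KO control and 92.6 in WT control) and so did not check the genotype labels. The RNA was not purely glomerular. Nephrin, Nphs1, which defines podocytes, lay between 1675 and 1899, and 15 podocyte markers had summed intensities between 40543.5 and 44029. All 19 proximal tubule markers matched on the array, of 20 listed, were readable. Their summed intensity was 350590.0 in KO ALDO, 388435 in WT ALDO, 377910.0 in KO control and 404660.0 in WT control. Sums over different genes do not give shares of cells. Since the RNA was bulk, fewer cells of a type and less RNA per cell cannot be told apart in any value given here.

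Amino acids filtered at the glomerulus are taken back almost completely by the proximal tubule. Brush border carriers load them into the cell from the lumen, and exchangers and facilitators in the basolateral membrane release them to the blood. Some carriers work as pairs, in which a heavy chain of the Slc3 family brings a light chain of the Slc7 family to the membrane. Other members of the families serve every cell for growth and for sensing of amino acids at the lysosome, or carry neurotransmitters, taurine and creatine.

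The most divergent member was Slc38a3, the basolateral glutamine carrier of the proximal tubule that feeds renal ammonia production. Its intensity was 1369.9 in KO ALDO and 597 in WT ALDO, and 1904 in KO control and 549 in WT control. Both KO arrays lay above both WT arrays. The log2 difference was 1.76 under control treatment (3.40-fold) and 1.18 under ALDO (2.26-fold), which placed the gene 8 from the top and 58 from the top of the 9097 readable genes. Between treatments the differences were smaller, -0.47 in KO and 0.12 in WT. The other probe set of Slc38a3 was dim, with 71.3 in KO ALDO, 37.2 in WT ALDO, 55.9 in KO control and 49.9 in WT control, and gave 0.13 for the genotypes under control treatment. Averaged over both probe sets, the genotype differences were 0.95 under each treatment, and neither reached 2-fold.

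Slc7a13, a light chain that pairs with rBAT for aspartate, glutamate and cystine transport in the late proximal tubule of mice, went the other way. Its intensity was 4181 in KO ALDO and 9159 in WT ALDO, and 7138 in KO control and 10467 in WT control. KO ALDO was the lowest array, and both KO arrays were below both WT arrays. The log2 difference between genotypes was -1.13 under ALDO, 18 from the bottom of the readable genes, and -0.55 under control treatment. ALDO minus control was -0.77 in KO and -0.19 in WT. A further readable probe set had 265 in KO ALDO, 611 in WT ALDO, 413 in KO control and 473 in WT control, which gave -1.16 under ALDO and -0.19 under control treatment.

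**Figure D1:**
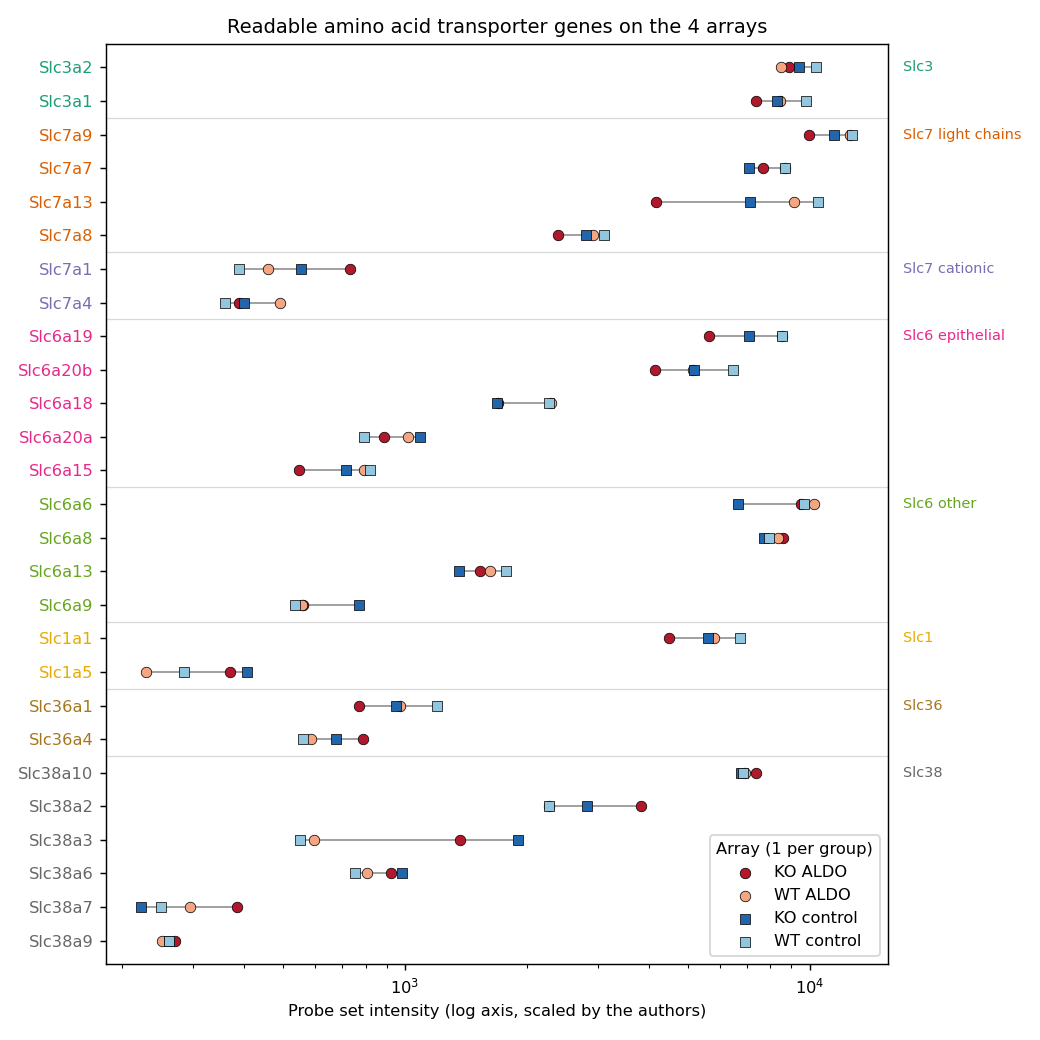
Intensity (log axis) of the 27 readable members on the 4 arrays, grouped by family and role, with a symbol for each array and a line from the lowest to the highest value. Slc38a3 has both KO arrays right of both WT arrays, and Slc7a13 has KO ALDO far left at 4181.

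Those were the only readable members past 2-fold in any of the 4 pairs of arrays. For KO control against WT control, 1 of 27 was higher by 2-fold or more and 0 were lower, where 0.967% of all readable genes were higher and 0.176% lower. For KO ALDO against WT ALDO, 1 was higher and 1 lower, where the shares of all readable genes were 1.26% and 0.352%. Counted in either direction, the shares of all readable genes were 1.14% under control treatment and 1.62% under ALDO. For KO ALDO against KO control 0 members were past 2-fold, where 0.572% of all readable genes were higher and 0.132% lower (0.704% in all). For WT ALDO against WT control 0 members were past 2-fold, where 0.33% were higher and 0.352% lower (0.682% in all). The ALDO effect in KO minus that in WT was past 2-fold for 0 members, against 0.594% of all readable genes above, 0.33% below and 0.923% in all. It was above 0 for 14 members (50.6% of all readable genes) and below 0 for 13 (49.4%). With 27 members, 1 gene is already a larger share than these, and the counts say little about the families as a whole.

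The direction of smaller differences was also counted. Under control treatment 17 of 27 members were below 0 (50.3% of all readable genes) and 10 above (49.7%), with a median of -0.15 where that of all readable genes was -0.0020. That count depended on the brightness limit. With the brightest 25% of genes 14 of 16 members were below 0, and with the dim members included 32 of 60 were. Under ALDO 15 of 27 were below 0 (48.7% of all readable genes) and 12 above (51.3%), with a median of -0.11 where that of all was 0.0087, a share near that of all genes. With the dim members included, 27 of 60 were below 0 and 33 above under ALDO, with a median of 0.04. This split depended on scaling, since centring each array on its median over all genes put 20 of 27 below 0 under ALDO and moved the median of all readable genes to -0.15. ALDO minus control in KO gave 16 of 27 below 0 (47.7% of all readable genes) and 11 above (52.3%), with a median of -0.08. In WT it gave 13 below 0 (48.1% of all readable genes) and 14 above (51.9%), with a median of 0.00057, and 16 below 0 after centring.

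**Figure D2:**
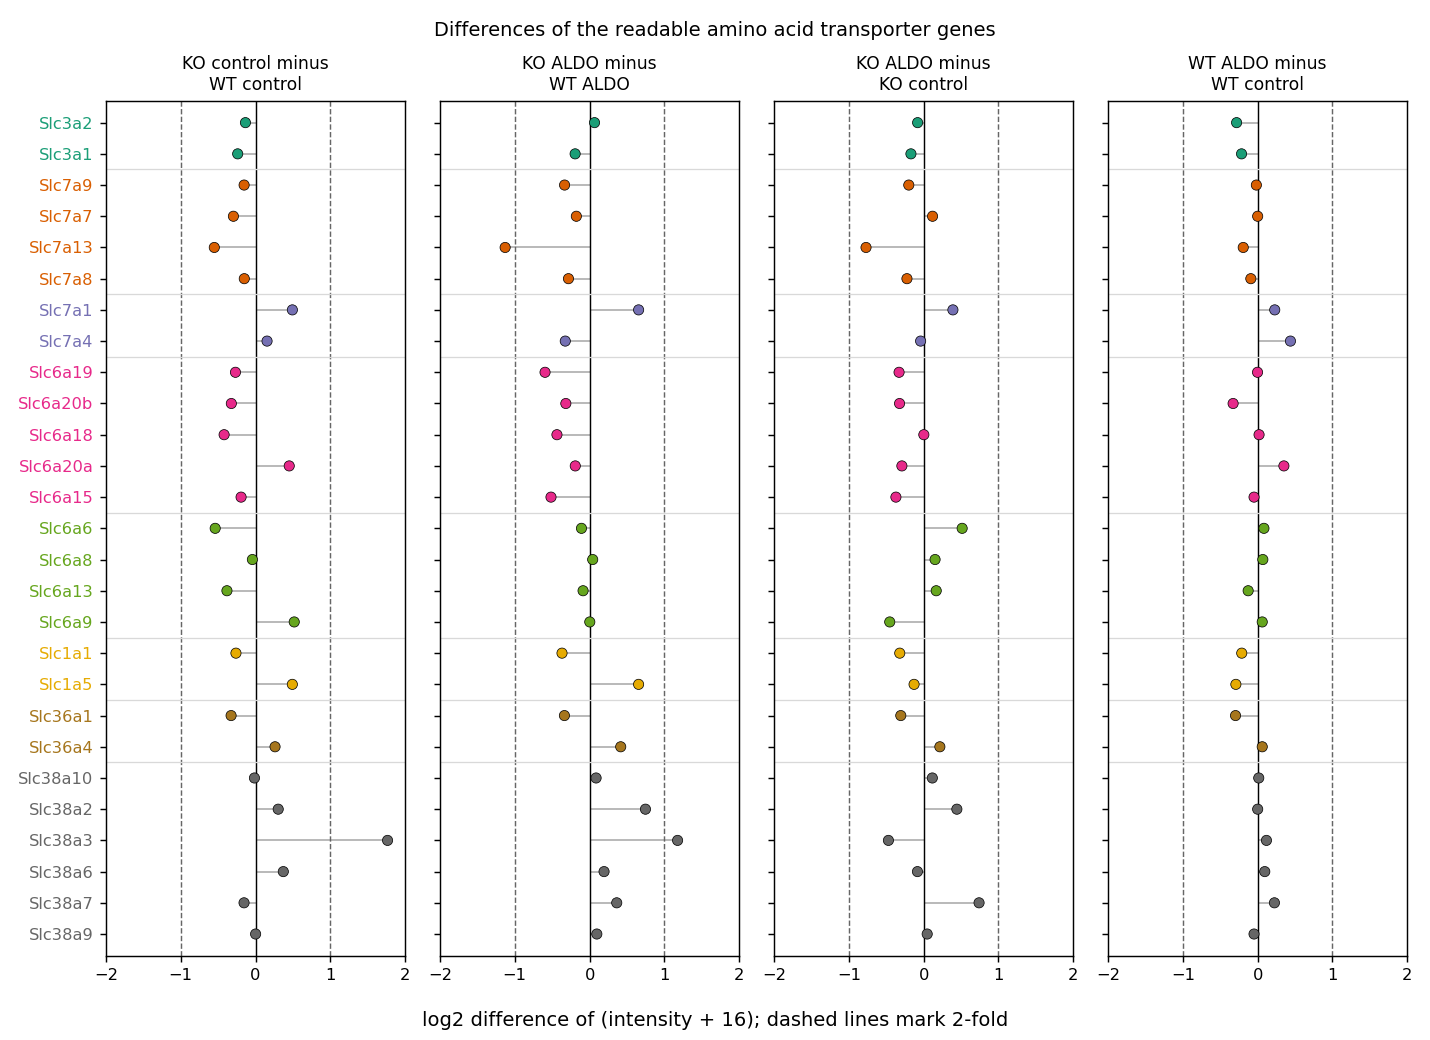
Log2 differences of the 27 readable members for the 4 pairs of arrays, with dashed lines at 2-fold and colours by family and role. Slc38a3 lies past the upper line in both KO minus WT panels (1.76 and 1.18) and Slc7a13 past the lower line under ALDO (-1.13), while no point passes a line in the ALDO minus control panels.

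Both heavy chains had small differences, of a size like those of the light chains Slc7a7, Slc7a8 and Slc7a9. Slc3a1, which encodes rBAT, the heavy chain of the brush border cystine and dibasic amino acid transporter, had 7385 in KO ALDO, 8445 in WT ALDO, 8307 in KO control and 9803 in WT control. Its genotype differences were -0.24 under control treatment and -0.19 under ALDO. Slc3a2, the heavy chain of the basolateral and general cellular exchangers (also known as CD98), had 8907 in KO ALDO, 8506 in WT ALDO, 9414 in KO control and 10339 in WT control. The WT control array was the highest for both genes, and the difference farthest from 0 was -0.28 (Slc3a2, WT ALDO against WT control).

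The readable light chains were lower in KO on their brightest probe sets. Of 10 on the array 4 were readable, and the 6 dim ones did not share this direction as a set. On their brightest probe sets Slc7a5, Slc7a6, Slc7a12 and Slc7a15 were above 0 under either treatment, and Slc7a10 and Slc7a11 were below. The 4 readable ones were below 0 in KO control (median -0.22), where 50.3% of all readable genes were. They were also below 0 in KO ALDO (median -0.31), where 48.7% of all readable genes were. The signs were the same under quantile normalization and median centring. Some differences were smaller than the SD of the gap between probe sets of a gene (0.25 under control treatment and 0.26 under ALDO). These were Slc7a8 and Slc7a9 under control treatment and Slc7a7 under ALDO. Slc7a9, the partner of rBAT in cystine reabsorption, had 9982 in KO ALDO and 12588 in WT ALDO, and 11454 in KO control and 12735 in WT control (differences of -0.33 under ALDO and -0.15 under control treatment). Slc7a7, the basolateral partner of Slc3a2 for dibasic amino acid release, had 7680.2 in KO ALDO, 8683 in WT ALDO, 7067 in KO control and 8679 in WT control. Its genotype differences were -0.18 under ALDO and -0.30 under control treatment, but a further readable probe set gave 0.01 and -0.09. Slc7a8, a basolateral exchanger of neutral amino acids, had 2393 in KO ALDO, 2913 in WT ALDO, 2794 in KO control and 3103 in WT control. Its differences were -0.28 under ALDO and -0.15 under control treatment. For Slc7a9, Slc7a8 and Slc3a1 the lowest array was KO ALDO and the highest WT control.

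The promoter windows of rBAT and of the light chains Slc7a9 and Slc7a8 are shown because, of the light and heavy chains with a window, these hold a match to a motif of a proximal tubule factor. They were picked after the search, and Slc7a7, a light chain also lower in KO, and Slc3a2 had no such match. The sequences are from RefSeq (GRCm38.p6), 250 bases before to 50 bases after the annotated start, 5′ to 3′ on the gene's strand. They lie at chr17:85028097-85028396 (plus strand) for Slc3a1, chr7:35448842-35449141 (plus, the first of 2 windows) for Slc7a9 and chr14:54781837-54782136 (minus) for Slc7a8. Capitals mark the motif matches described after them.
Slc3a1: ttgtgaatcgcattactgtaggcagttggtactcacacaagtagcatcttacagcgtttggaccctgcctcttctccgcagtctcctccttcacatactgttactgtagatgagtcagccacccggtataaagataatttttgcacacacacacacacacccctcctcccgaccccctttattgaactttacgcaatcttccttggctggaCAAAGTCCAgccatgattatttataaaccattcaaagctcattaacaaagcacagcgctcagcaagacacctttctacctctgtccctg
Slc7a9: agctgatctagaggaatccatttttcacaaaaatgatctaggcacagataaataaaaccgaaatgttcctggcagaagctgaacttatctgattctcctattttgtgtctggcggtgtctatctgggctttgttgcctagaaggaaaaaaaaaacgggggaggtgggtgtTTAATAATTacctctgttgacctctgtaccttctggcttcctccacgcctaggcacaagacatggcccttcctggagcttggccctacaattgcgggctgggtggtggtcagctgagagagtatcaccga
Slc7a8: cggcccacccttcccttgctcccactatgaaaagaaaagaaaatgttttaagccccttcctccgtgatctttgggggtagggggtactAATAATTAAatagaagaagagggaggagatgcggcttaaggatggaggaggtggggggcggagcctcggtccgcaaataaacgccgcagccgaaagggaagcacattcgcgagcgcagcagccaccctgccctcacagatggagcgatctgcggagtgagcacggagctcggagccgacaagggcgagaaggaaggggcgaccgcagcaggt
Both strands of the windows of 19 readable members that matched by gene ID were searched for TTAATNATT, the core of the HNF1 motif, for CAAAGTCCA, a site of the HNF4 type, and for TGATGNAA, the core of the amino acid response element. HNF1 and HNF4 are transcription factors of proximal tubule cells, and the amino acid response element is bound by ATF4 in amino acid shortage. The HNF4 letters occurred in Slc3a1 alone, starting 39 bases before the start, against 0.555% of all 27025 genes with a window. The HNF1 core occurred in Slc7a9, starting 80 bases before the start on the gene's own strand. It also occurred in Slc7a8, 162 bases before the start on the opposite strand, against 1.72% of all genes with a window. The response element core occurred in 1 of the 19, Slc7a7, against 4.51% of all genes with a window. Matches of this kind describe letters and show neither a bound site nor a cause.

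The Slc6 group of neutral amino acid and imino acid carriers holds sodium-coupled carriers of the brush border and some relatives that are not placed there, Slc6a15 among them. Of its 8 genes 5 were readable, and all 5 were below 0 in KO ALDO (median -0.44), where 48.7% of all readable genes were. In KO control 4 of 5 were below 0 (median -0.27), where 50.3% of all readable genes were. Slc6a19, the main neutral amino acid carrier of kidney and intestine, had 5637 in KO ALDO and 8524 in WT ALDO, and 7080.1 in KO control and 8531 in WT control. The WT arrays were nearly equal and both KO arrays lower, with differences of -0.60 under ALDO and -0.27 under control treatment. Its further probe set, also readable, gave -0.55 and -0.39. Slc6a18, a glycine and neutral amino acid carrier of the late proximal tubule, had 1696 in KO ALDO and 2299.8 in WT ALDO, and 1692 in KO control and 2269 in WT control. The arrays paired by genotype, with -0.44 under ALDO and -0.42 under control treatment, and treatment made a difference of at most 0.02. Slc6a15, a carrier of branched-chain amino acids and proline best known from brain, had 548 in KO ALDO, 790.1 in WT ALDO, 713 in KO control and 817 in WT control (-0.52 under ALDO and -0.19 under control treatment).

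The paired imino acid carrier genes differed from each other. Slc6a20b had 4139 in KO ALDO, 5160.4 in WT ALDO, 5176 in KO control and 6480.5 in WT control, with KO minus WT at -0.32 under either treatment and ALDO minus control at -0.32 in KO and -0.33 in WT. Its further readable probe set was also below 0 in all 4 comparisons. Slc6a20a had 887 in KO ALDO and 1015 in WT ALDO, and 1088 in KO control and 792 in WT control. It was higher in KO under control treatment (0.45) and slightly lower under ALDO (-0.19). The genes are close paralogs, and shared signal between their probe sets was not tested.

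Slc1a1, the sodium-coupled glutamate and aspartate carrier of the brush border, had 4486 in KO ALDO, 5795 in WT ALDO, 5599 in KO control and 6716 in WT control. The KO differences were -0.37 under ALDO and -0.26 under control treatment, and 2 further readable probe sets gave -0.27 and -0.42 under ALDO and -0.14 and -0.24 under control treatment. Members were also set together by their place in the cell, a grouping made after the values were seen. The brush border members were Slc1a1, Slc3a1, Slc6a18, Slc6a19, Slc6a20a, Slc6a20b, Slc7a9 and Slc7a13. In KO ALDO 8 of 8 were below 0 (48.7% of all readable genes were), with a median of -0.35. In KO control 7 of 8 were below 0 (50.3% of all readable genes were), with a median of -0.27 and Slc6a20a as the exception. These counts were the same with quantile normalization, median centring and the mean of all probe sets. Proximal tubule markers that are not amino acid transporters moved with them: 16 of 19 were below 0 in KO ALDO (median -0.24) and 15 of 19 in KO control (median -0.12), led by Slc22a8 (-0.49) under ALDO and Cubn (-0.46) under control treatment. The part of this in the transporter values was not tested. Among the 5 basolateral members, Slc38a3 was the highest in KO under either treatment, and Slc3a2, Slc6a13, Slc7a7 and Slc7a8 lay between -0.38 and 0.07.

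**Figure D3:**
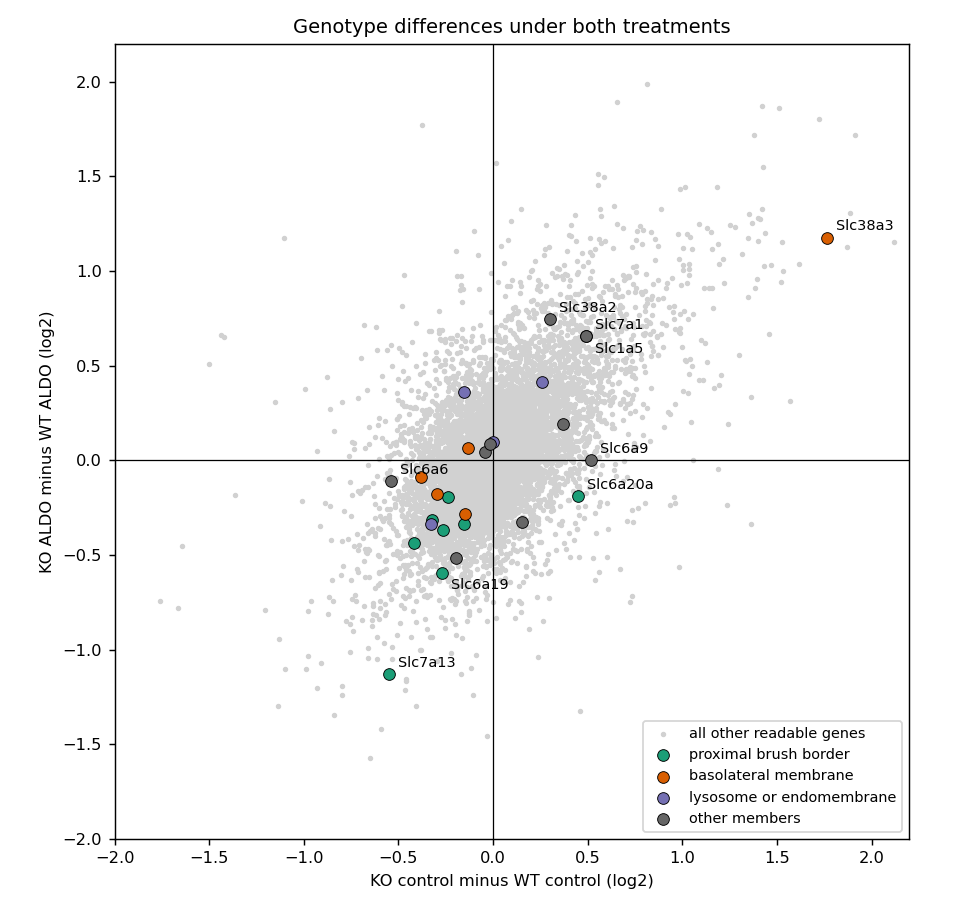
Log2 difference of KO control minus WT control (horizontal) and KO ALDO minus WT ALDO (vertical) for the 27 readable members, coloured by place in the cell, over all other readable genes in grey, of which 10 lie outside the axes. Brush border members sit in the lower left, except Slc6a20a at 0.45 and -0.19, and Slc38a3 sits far to the upper right.

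The genotype differences under ALDO and under control treatment share no array. Across the 27 members, which are not independent replicates, they had a Pearson correlation of 0.77 and a Spearman correlation of 0.70, and 0.68 and 0.67 without Slc38a3. Over all 9097 readable genes the values were 0.59 and 0.52. In all, 13 members were below 0 in both comparisons (33.8% of all readable genes were) and 8 were above 0 in both (34.8%). The ALDO effects in KO and in WT, which also share no array, were below 0 in both for 11 members (29% of all readable genes) and above 0 in both for 9 (33.2%). They had a Pearson correlation of 0.36 over the members and 0.41 over all readable genes.

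The remaining Slc6 members carry osmolytes, transmitters, creatine and glycine, and 4 of 11 were readable. Slc6a6, the taurine carrier that serves cell volume control, had 9528 in KO ALDO and 10271 in WT ALDO, and 6661 in KO control and 9687 in WT control. KO control stood apart as the lowest array, so the difference was -0.54 between genotypes under control treatment and 0.52 between treatments in KO. A further readable probe set put KO control lowest as well, with smaller differences of -0.25 and 0.24. Slc6a8, the creatine carrier, lay between 7725 and 8593 and differed by at most 0.15 in any pair. Slc6a13, a basolateral carrier of GABA and taurine in the proximal tubule, had 1528 in KO ALDO, 1623 in WT ALDO, 1357 in KO control and 1774 in WT control. Slc6a9, a glycine carrier, had 558 in KO ALDO and 557 in WT ALDO, and 770.0 in KO control and 533 in WT control, where KO control was the highest array (0.52 against WT control). Its further readable probe set did not share this, with 226 in KO ALDO, 321 in WT ALDO, 331 in KO control and 374 in WT control.

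Slc7a1, Slc1a5 and Slc38a2 are given together because their values were higher in KO, so their shared direction is the choice and not a result. Slc7a1, the general cationic amino acid carrier for arginine and lysine, had 730.3 in KO ALDO and 458 in WT ALDO, and 553 in KO control and 388 in WT control. The differences were 0.66 under ALDO and 0.49 under control treatment. A further readable probe set gave 0.77 and 0.58 with the same order of genotypes. Slc1a5, a glutamine and neutral amino acid exchanger, had 370.2 in KO ALDO and 229 in WT ALDO, and 406 in KO control and 284 in WT control (0.66 under ALDO and 0.49 under control treatment). Its other probe set was dim. Slc38a2, a sodium-coupled neutral amino acid carrier induced by amino acid shortage and by hypertonicity in cultured cells, had 3828 in KO ALDO and 2274 in WT ALDO, and 2809 in KO control and 2273 in WT control. WT arrays were level, and KO ALDO was the highest, with 0.75 against WT ALDO and 0.44 against KO control. A further readable probe set of Slc38a2 gave 0.20 and 0.55 for these, and 0.59 for WT ALDO against WT control, and another, dim one had the genotypes in the opposite order. Slc7a4, grouped with the cationic carriers by sequence but without known transport of its own, was highest in WT ALDO (492), with 389 in KO ALDO, 401 in KO control and 359 in WT control.

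Macrophage markers also differed between genotypes. Of 19 markers 13 were readable, and all 13 were above 0 in KO control (median 1.16) and in KO ALDO (median 1.04). Summed over the 19, their intensity was 17503.5 in KO ALDO, 7981 in WT ALDO, 15819 in KO control and 7845 in WT control. Endothelial markers were also higher, with 16 of 16 above 0 in KO ALDO (median 0.46) and 15 of 16 in KO control (median 0.38). Their summed intensity was 52217.9 in KO ALDO, 36401.8 in WT ALDO, 42932.5 in KO control and 32657.8 in WT control. Of 10 readable mesangial markers 7 were above 0 in KO ALDO (median 0.35) and 8 in KO control (median 0.33). Markers of thick limb, distal tubule and collecting duct had 12 of 20 above 0 under either treatment (medians of 0.08 under ALDO and 0.13 under control treatment). Of all readable genes 51.3% were above 0 in KO ALDO and 49.7% in KO control. The part of any of these cell types in the values of Slc7a1, Slc1a5 and Slc38a2 was not tested.

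**Figure D4:**
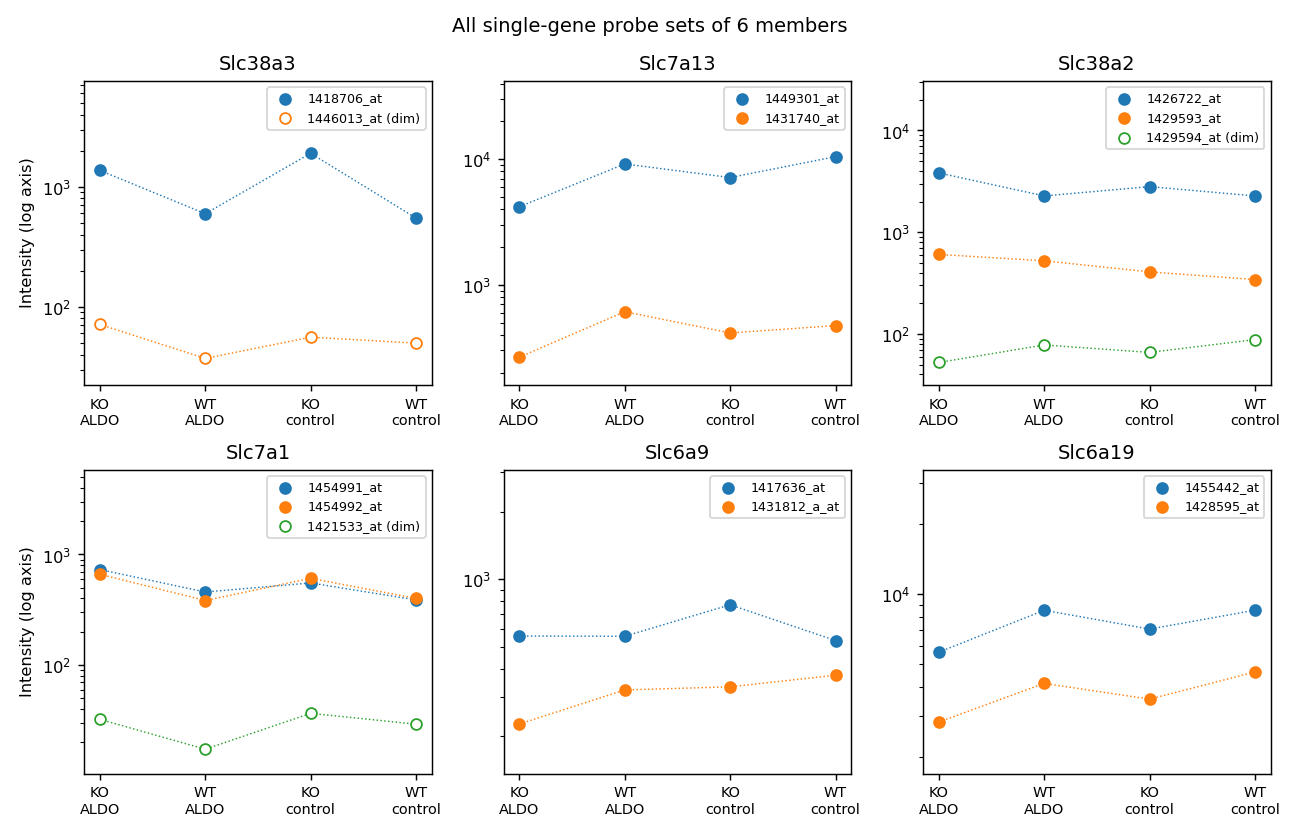
Intensity (log axis) of every probe set with a symbol of its own for 6 members on the 4 arrays, where open symbols are dim probe sets and dotted lines only join values of the same probe set. The readable probe sets of Slc7a13, Slc7a1 and Slc6a19 place the genotypes in the same order, as do those of Slc38a2, which has a dim one besides, while the second probe set of Slc38a3 is dim and those of Slc6a9 differ.

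Lysosomal and other intracellular members included the proton-coupled carriers. Slc36a1, which exports amino acids from the lysosome, had 768 in KO ALDO, 973 in WT ALDO, 952 in KO control and 1198 in WT control. It was lower by about the same amount in each of the 4 comparisons, between -0.34 and -0.30. Slc36a4, a carrier of proline and tryptophan, went the other way, with 786 in KO ALDO, 585 in WT ALDO, 673 in KO control and 559.5 in WT control (0.42 under ALDO and 0.26 under control treatment). Slc38a7, a glutamine exporter of the lysosome, had 384 in KO ALDO and 295 in WT ALDO, and 223 in KO control and 250.01 in WT control. Its difference of 0.74 for KO ALDO against KO control was the largest positive one of any readable member between treatments. Slc38a9, the lysosomal arginine sensor upstream of mTORC1, lay between 251 and 270.1 on all arrays, just above the dim limit. Slc38a10 lay between 6783 and 7355, with KO minus WT at 0.09 under ALDO. Its 2 further readable probe sets gave -0.27 and 0.03 under ALDO, and -0.25 and -0.06 under control treatment. Slc38a6 had 925 in KO ALDO, 807 in WT ALDO, 980.0 in KO control and 754 in WT control, and its second probe set, which was dim, gave -0.64 between genotypes under control treatment where the first gave 0.37. The 6 readable Slc38 members were all above 0 in KO ALDO (median 0.28), but 5 were with quantile normalization and 4 with median centring. In KO control 4 were above 0 (median 0.15), or 3 with median centring. Of all readable genes 51.3% were above 0 in KO ALDO and 49.7% in KO control.

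Genes around the carriers were read in 7 companion lists, where 2 of 124 readable genes were past 2-fold in at least 1 of the 4 pairs of arrays (1.61%, against 2.96% of all readable genes). Of the 27 dim genes of the lists 7 were. Dim genes of the lists are read no further, except that the signs of the dim ATF4 targets are counted. The list of glutamine breakdown and ammonia production had 10 readable genes. In KO control 8 were above 0 (median 0.24), where 49.7% of all readable genes were. In KO ALDO 3 were above 0 (median -0.09), where 51.3% of all readable genes were. Glud1, glutamate dehydrogenase, had 12118.5 in KO ALDO and 9425 in WT ALDO, and 13603.5 in KO control and 8866 in WT control (0.36 under ALDO and 0.62 under control treatment). Gpt, alanine aminotransferase, had 502 in KO ALDO and 535 in WT ALDO, and 670.4 in KO control and 405 in WT control (-0.09 under ALDO and 0.71 under control treatment). Both were highest in KO control, as were Slc38a3 and also Slc1a5, Slc6a9, Slc6a20a and Slc38a6 among the readable members. Glul, glutamine synthetase, was the lowest gene of the list under control treatment (-0.32). No gene of the list was past 2-fold in any comparison.

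Enzymes of serine, glycine, taurine and branched-chain amino acid metabolism leaned lower in KO ALDO against WT ALDO. Of 23 readable genes of the list 19 were below 0 (48.7% of all readable genes were), with a median of -0.34. Sardh, sarcosine dehydrogenase (-0.65), and Mccc2, a subunit of methylcrotonyl-CoA carboxylase (-0.62), were lowest, and Shmt1, a serine hydroxymethyltransferase, was highest (0.53). In KO control 16 of 23 were below 0 (50.3% of all readable genes were), with a median of -0.07. Glutathione genes had medians of -0.11 in KO ALDO and -0.14 in KO control over 13 readable genes, with Gss, glutathione synthetase, lowest under ALDO (-0.49). Arginine, creatine and polyamine genes had medians of -0.11 in KO ALDO and 0.05 in KO control over 12, with Ddah2, which breaks down methylated arginines, highest in both (0.45 and 0.61).

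Targets of ATF4, the factor of the amino acid response, were split evenly among the readable genes. Of 24 readable genes 12 were above 0 in KO ALDO and 12 in KO control, with medians of 0.0033 and -0.03. The 7 dim targets were all above 0 in KO ALDO, which made 19 of 31, and 5 of the 7 were in KO control, which made 17 of 31. Over all 18193 genes, dim ones included, 55.4% were above 0 in KO ALDO and 53.1% in KO control. Ddit3 (0.69) was highest and Sesn2 (-0.94) lowest in KO ALDO against WT ALDO, and Nupr1 was past 2-fold in KO ALDO against KO control (1.30). The mTORC1 sensing list had 20 of 28 genes below 0 in KO ALDO (median -0.13) and 17 in KO control (median -0.04). Of all readable genes 48.7% and 50.3% were below 0, in the same order. The list of transporters of other families and accessory proteins had medians of -0.05 in KO ALDO and -0.07 in KO control over 20 genes. Among them Slc25a13, the mitochondrial aspartate and glutamate exchanger, had 1273 in KO ALDO and 2566 in WT ALDO, and 1720.0 in KO control and 2250.3 in WT control, which made it the only one past 2-fold (-1.002 under ALDO). Slc16a10, a basolateral carrier of aromatic amino acids, was lower in KO under ALDO (-0.44) and under control treatment (-0.38). Slc43a3, now known as a purine base carrier, was the highest of the list (0.76 under ALDO and 0.53 under control treatment).

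**Figure D5:**
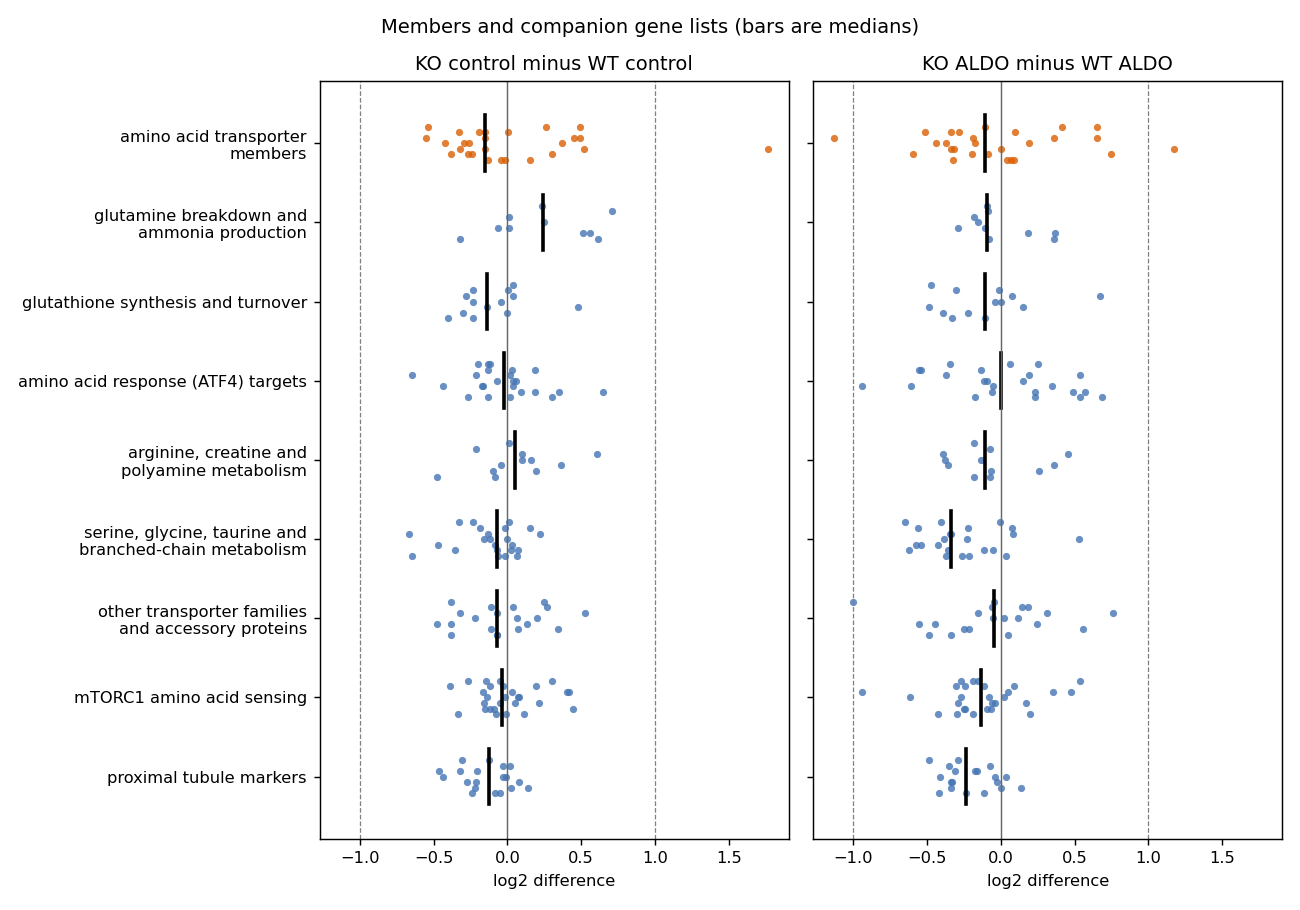
Log2 differences of the readable members (orange) and of the readable genes of 7 companion lists and the proximal tubule markers (blue), with a bar at each median, for KO control minus WT control (left) and KO ALDO minus WT ALDO (right). The list of glutamine breakdown is centred above 0 on the left (0.24) and near 0 on the right, and the list of serine, glycine, taurine and branched-chain metabolism is centred at -0.34 on the right.

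The 33 dim members are named without reading the size of their differences, apart from Slc7a6, and 10 of them had at least 1 past 2-fold. They were Slc1a2, Slc1a3, Slc1a4, Slc1a6 and Slc1a7 of the Slc1 family, and Slc6a2, Slc6a3, Slc6a4, Slc6a5, Slc6a7, Slc6a11, Slc6a12, Slc6a14, Slc6a16, Slc6a17 and Slc6a21 of the Slc6 family. The Slc7 family gave Slc7a2, Slc7a3, Slc7a5, Slc7a6, Slc7a10, Slc7a11, Slc7a12, Slc7a14 and Slc7a15, and the rest were Slc36a2, Slc36a3, Slc38a1, Slc38a4 and Slc38a5. The symbol rule also took in Slc6a19os, Slc7a6os and Slc36a1os, opposite-strand genes that are not transporters. Intensities of the 33 ranged between 2.28 and 367, and 20 stayed under 100 on every array. Just inside the limit lay Slc38a9 and Slc38a7 (mean log2 values of 8.11 and 8.22). Just outside lay Slc38a4 (7.91) and Slc7a6 (7.90), which is a light chain of Slc3a2 for dibasic amino acids with 367 in KO ALDO, 170.1 in WT ALDO, 242 in KO control and 162 in WT control. Slc7a5, the light chain of the main exchanger for large neutral amino acids, and Slc7a11, that of the cystine and glutamate exchanger, were also among the dim genes.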

How the data were processed

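Glomerular total RNA was labelled with a 3' in vitro transcription kit, per the labels' protocols, and hybridised to 1 Affymetrix mouse array for each of 4 groups taken from the sample titles. The deposited values are probe set intensities on a linear scale, and per the submitters' processing notes the authors used Affymetrix Expression Console. For its version and summary algorithm the labels give nothing. Trimming 2% from either end gave a mean of 500.003 on every array, so the intensities had been scaled before deposit. Intensities carry no counting depth.

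Of 45101 probe sets, 34945 with 1 symbol in the platform annotation, apart from Affymetrix controls, were used; 932 with several symbols, 1 of them a member's, were left out. Entrez identifiers of 99.4% were found in the RefSeq gene table of GRCm38.p6, through which 0 member symbols changed. Values were taken as log2(intensity + 16), which understates differences of dim genes. The members had 120 probe sets, and the brightest stood for its gene. Readable genes were the brighter 50% of 18193. No test was made, as there was 1 array per group. Python 3.11.15, numpy 2.4.6, pandas 2.3.3 and matplotlib 3.10.9 were used, and the steps were tested on simulated data. The members, role groups, companion and marker lists were chosen with earlier results of these data known. Readable members were named with values and dim ones by name, except that Slc7a6 has values and the dim light chains have signs. From a companion list up to 2 highest and 2 lowest genes of a comparison were named. Alternatives were a pseudocount of 1 or 64, quantile normalization, median centring, the mean or second probe set of a gene, no filter on low signal, and the brightest 25% of genes. The spread used to judge a shift between settings was the SD, over 3327 genes with a further readable probe set, of the gap between the 2 probe sets, 0.25 for KO control against WT control and between 0.25 and 0.33 for the other comparisons.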

Additional observations from a re-analysis of the deposited data

Results flagged for a closer look

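Slc6a20a, an imino acid carrier, had opposite treatment effects in the genotypes, each larger than the spread between probe sets of a gene. ALDO minus control was -0.29 in KO and 0.35 in WT, a difference of -0.64 on the log2 scale. Its intensities were 887 in KO ALDO and 1088 in KO control, and 1015 in WT ALDO and 792 in WT control. With 1 array per group and 1 probe set for the gene, the difference was not tested. The neighbouring family member Slc6a20b had -0.32 in KO and -0.33 in WT.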

How the results depend on the processing

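Of the 15 counts and medians over the members, all stayed within 1.5 times (counts) or the probe set SD given above (medians) with a pseudocount of 1 or 64, quantile normalization, median centring and the brightest 25% of genes, where 16 members remained readable. With the mean of all probe sets, 0 members were higher by 2-fold or more in KO control against WT control, since Slc38a3 was at 0.95 there. For KO ALDO against WT ALDO the count stayed at 1, but Slc38a3 was at 0.95 there too. The 1 gene counted was thus another member, in a setting where 30 members were readable. Slc7a6, a light chain that was dim in the main setting, had 1.04 and 1.47 on its 2 probe sets for these arrays. Without a filter on low signal, when all 60 members were counted, those higher and lower by 2-fold or more were 4 and 2 for KO control against WT control, 4 and 3 for KO ALDO against WT ALDO, 1 and 3 for KO ALDO against KO control, 3 and 2 for WT ALDO against WT control, and 6 and 4 for the difference of the ALDO effects (KO minus WT), where 0 and 0 of the readable members were. Over all 18193 genes the shares higher and lower were 4.44% and 2.46%, 4.72% and 2.34%, 3.83% and 2.30%, 3.40% and 2.59%, and 5.87% and 5.14%, in the same order. The median of the members turned to 0.04 for KO ALDO against WT ALDO and to 0.03 for KO ALDO against KO control in this setting. Across pseudocounts and scalings Slc38a3 stayed past 2-fold, between 1.68 and 1.79 under control treatment and between 1.01 and 1.20 under ALDO. Of 108 member differences, 83 kept their sign with these settings and the mean of probe sets, and of the 25 that did not, 1 was larger than the probe set SD (Slc38a6 in KO control against WT control, 0.37, or -0.14 with the mean of probe sets). The second probe set of a gene, dim ones included, moved 28 of 80 member values by the probe set SD or more. Of the 12 members whose second probe set was readable, 11 kept their sign for KO control against WT control and 8 for KO ALDO against WT ALDO. For KO ALDO against KO control 11 did, and for WT ALDO against WT control 7 did. No paired analysis was possible because each group had 1 array. Between arrays, 18 probe sets of spiked-in RNA differed by medians of -0.04 (KO control against WT control), 0.08 (KO ALDO against WT ALDO), -0.11 (KO ALDO against KO control) and -0.27 (WT ALDO against WT control). The cause of these changes was not tested.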
